A study of Homo sapiens with 20 samples.

Results

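Glycosaminoglycans are the long sugar chains of proteoglycans, and 35 human genes for the enzymes that start, extend, sulfate and trim them are described here in corneal epithelial cells given the matrix protein SPARC. The 35 genes were found by their symbols among the 60671 gene identifiers of the deposited count table, and each symbol matched 1 identifier. RNA was measured by sequencing in 20 samples of hTCEpi, a human corneal epithelial line immortalized with telomerase, which is a model of the epithelium without its stroma or nerves. All cells grew in a keratinocyte medium with a supplement mix, antibiotics and added calcium chloride. They received recombinant human SPARC for 24 h at 0 µg/ml (control), 0.05 µg/ml (SPARC 0.05), 0.5 µg/ml (SPARC 0.5) or 5 µg/ml (SPARC 5), with 5 replicates in each of the 4 groups. Whether the replicates were separate cultures is not stated in the labels, so the p-values measure the spread between these samples, which may be technical.

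A chain starts when a xylosyltransferase places xylose on a serine of a core protein, and a short linkage region of galactose and glucuronic acid is added to it. Exostosins then extend heparan sulfate, while chondroitin synthases and polymerizing factors extend chondroitin. Sulfotransferases and epimerases modify the growing chain in the Golgi, and the extracellular sulfatases remove some sulfates from heparan sulfate after it has reached the cell surface. Hyaluronan is made at the plasma membrane, with no core protein and no sulfate. In the cornea, sulfated chains of the stroma are known for their part in the spacing of collagen fibrils, and heparan sulfate is a component of the epithelial surface and its basement membrane. SPARC is a secreted glycoprotein that binds collagen and calcium.

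Counts per sample summed to between 31955358 and 50112286. Levels are in CPM (a gene's reads relative to its library total, after TMM scaling, which evens out composition between libraries), and 34 of the 35 genes had enough counts to be tested. The basal epithelial keratin KRT5 stood at 11300 ± 354 CPM (SD, n = 5) in control. All 10 corneal and basal epithelial markers had counts in every group, although KRT12, the keratin of mature corneal epithelium, was at most 0.111 CPM in a control sample, near the level of a few reads. The epithelial markers, mostly KRT5, summed to 12900 to 13800 CPM in control and 13500 to 13900 CPM at SPARC 5. The sum therefore says little of the others. Of the 9 tested, 3 rose at SPARC 5 and 2 fell. Mean KRT14 went from 331 to 465 CPM and ITGB4 from 1220 to 1470 CPM. Mean KRT15 went from 114 to 53.1 CPM and EPCAM from 86.6 to 69.2 CPM. Stromal and fibroblast markers summed to 4.63 to 6.23 CPM in control and 5.58 to 7.79 CPM at SPARC 5, with KERA, LUM and PDGFRA at 0 counts in both, and 0 of 1 tested changed. Conjunctival and goblet cell markers summed to 558 to 652 CPM in control and 1080 to 1120 CPM at SPARC 5, nearly all of it KRT7. Of the 3 of them tested, 1 rose, the keratin KRT7 (log2 fold change 0.82 ± 0.03 SE), while the goblet cell mucin MUC5AC was at most 0.0905 CPM in control and 0.166 CPM at SPARC 5. The keratins KRT13 (0.705 ± 0.180 CPM in control, 0.482 ± 0.168 CPM at SPARC 5) and KRT19 (0.806 ± 0.112 and 0.796 ± 0.234 CPM) did not pass. Immune markers summed to at most 0.634 CPM, and endothelial and melanocyte markers to at most 4.85 CPM, in control and SPARC 5. In these bulk samples, a change in the number of cells of one kind and a change in RNA per cell cannot be told apart, and the part of KRT7-expressing cells in the results was not tested. The control libraries also favoured GC-rich genes more than the others did: the mean correlation of a library's deviations with gene GC content was 0.128 in control (−0.012 to 0.270) and −0.040 at SPARC 5 (−0.127 to 0.099).

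SPARC at 5 µg/ml changed the chain-starting, extending and modifying enzymes unevenly. Among 34 members with a test, there were 7 rises and 3 falls, and 24 were not called (edgeR quasi-likelihood F-test, Benjamini-Hochberg adjustment over all 22938 genes tested, adjusted p under 0.05). The rises were XYLT1, EXT2, CHST11, CHST15, DSE, NDST1 and SULF2, and the falls were HS6ST1, SULF1 and HAS3. The members called made up 29.4% of those tested, while 11.6% of all genes tested were called, 7.04% as rises and 4.58% as falls. Most members are abundant, and abundant genes were called more often: among genes of at least 5 CPM, 9 of 30 members (30.0%) and 2297 of 11087 genes (20.7%) were called. The median log2 fold change was 0.05 over the members and −0.01 over all genes tested, and the median absolute change was 0.11 for the members against 0.13 for all genes. With scaling by library sizes alone, 6 members rose and 8 fell, and over all genes 999 rose and 2191 fell, where the scaling used here gave 1615 rises and 1050 falls.

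**Figure D1:**
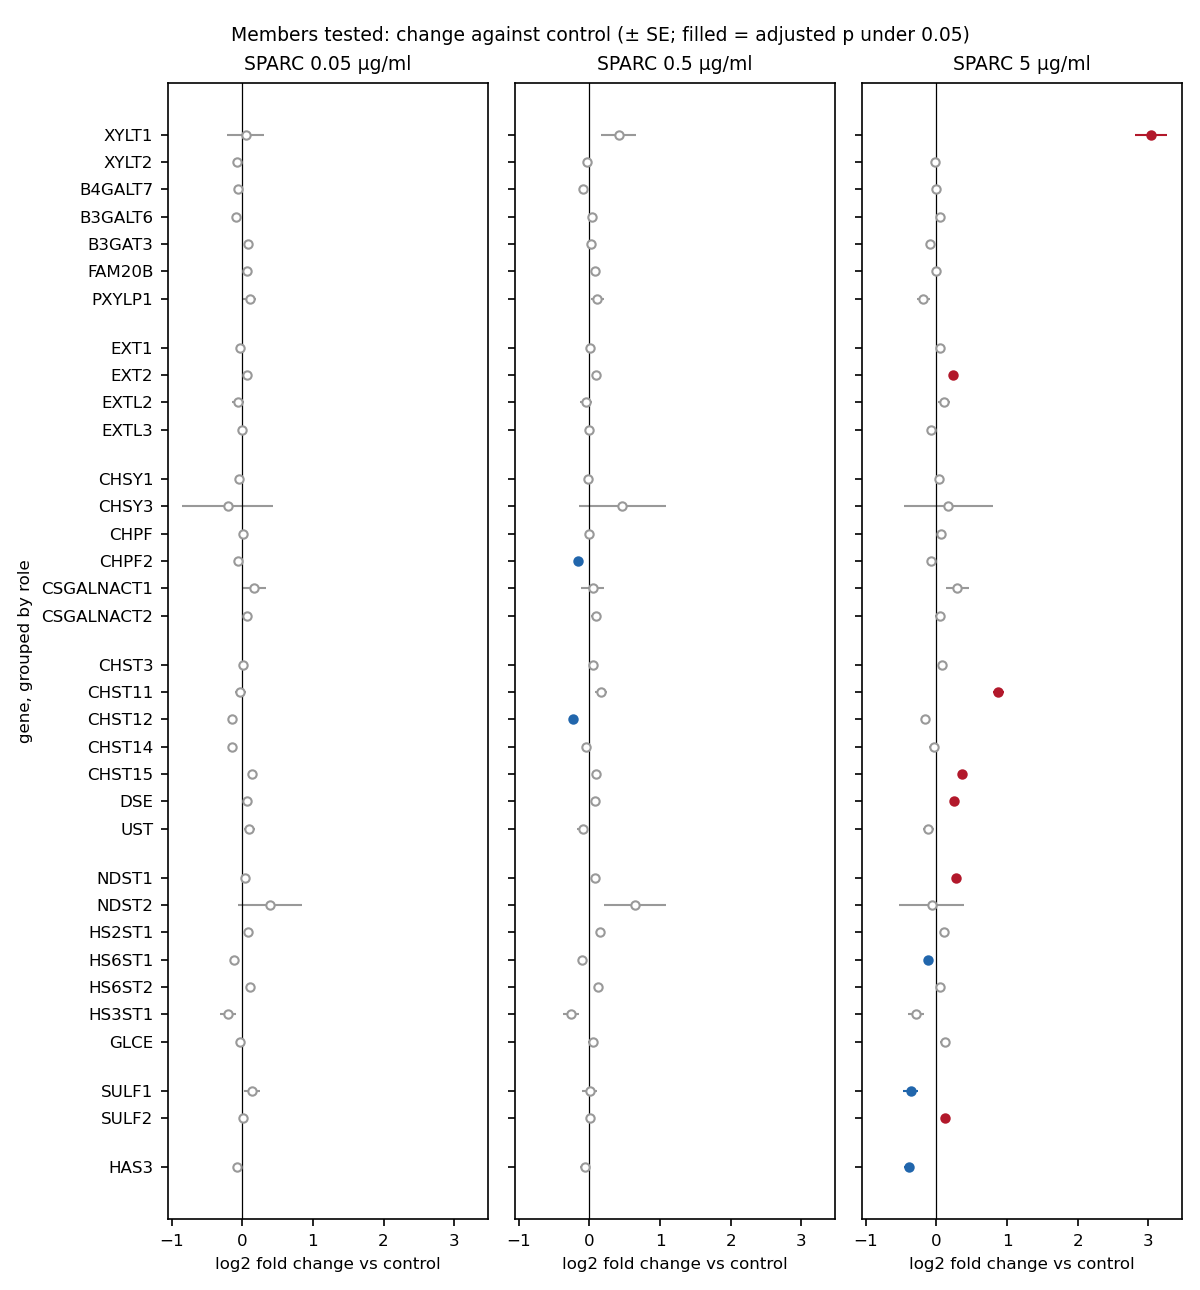
Log2 fold change against control (x axis, ± SE) of each of the 34 tested enzymes (y axis, grouped by role) at 0.05, 0.5 and 5 µg/ml SPARC; filled points passed the test, red for rises and blue for falls. XYLT1 at 5 µg/ml stands at 3.04, CHST11 at 0.88, and all other points of that panel lie between −0.39 and 0.36.

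At 0.5 µg/ml, 0 of the 34 rose by the edgeR test and 2 fell, CHPF2 and CHST12, or 5.88% of the members beside 2.25% of all genes tested (1.36% as rises, 0.894% as falls). At an unadjusted p under 0.05, 6 members were higher and 4 lower at this dose, and DESeq2 called 4 rises (EXT2, NDST1, HS2ST1 and HS6ST2) and the same 2 falls. At 0.05 µg/ml, 0 of the 34 passed the edgeR test, beside 0.266% of all genes (0.187% as rises and 0.0785% as falls), and DESeq2 called 0, while 7 had an unadjusted p under 0.05. The 3 doses were compared with the same 5 control samples. Groups were also compared by samples and not by the test. The 5 samples at 5 µg/ml lay wholly above or below the 5 control samples for 7 of 34 members. This held for 1762 of all 22938 genes tested (7.68%). At 0.5 µg/ml it was 3 of 34 members and 711 of all genes (3.10%). At 0.05 µg/ml it was 1 of 34 members and 399 of all genes (1.74%).

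The 2 largest rises, of XYLT1 and CHST11, each had a close relative that did not pass the test at the same dose, XYLT2 and CHST12. The 250 bases before the RefSeq start of each of these 4 genes on GRCh38.p14 are printed below for comparison. They read 5′ to 3′ on the gene's own strand, and capitals mark CAGAC, a motif bound by SMAD proteins, or its complement GTCTG. They lie at chr16:17470961-17471210 (minus strand) for XYLT1, chr17:50345876-50346125 (plus) for XYLT2, chr12:104456698-104456947 (plus) for CHST11 and chr7:2403361-2403610 (plus) for CHST12.
XYLT1: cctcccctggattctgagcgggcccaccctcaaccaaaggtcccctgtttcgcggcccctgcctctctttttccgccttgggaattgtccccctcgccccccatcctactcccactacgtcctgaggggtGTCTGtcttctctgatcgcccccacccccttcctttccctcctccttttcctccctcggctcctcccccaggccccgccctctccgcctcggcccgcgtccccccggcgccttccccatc
XYLT2: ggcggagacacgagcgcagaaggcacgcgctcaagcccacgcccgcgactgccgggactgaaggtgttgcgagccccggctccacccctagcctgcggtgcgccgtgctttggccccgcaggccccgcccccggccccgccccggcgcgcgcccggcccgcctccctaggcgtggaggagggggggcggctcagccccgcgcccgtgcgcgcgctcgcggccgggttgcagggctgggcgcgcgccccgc
CHST11: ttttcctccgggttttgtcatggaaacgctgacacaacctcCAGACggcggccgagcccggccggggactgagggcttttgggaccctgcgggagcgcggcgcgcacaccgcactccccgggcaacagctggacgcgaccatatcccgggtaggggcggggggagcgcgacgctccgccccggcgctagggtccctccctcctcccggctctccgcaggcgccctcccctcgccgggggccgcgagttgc
CHST12: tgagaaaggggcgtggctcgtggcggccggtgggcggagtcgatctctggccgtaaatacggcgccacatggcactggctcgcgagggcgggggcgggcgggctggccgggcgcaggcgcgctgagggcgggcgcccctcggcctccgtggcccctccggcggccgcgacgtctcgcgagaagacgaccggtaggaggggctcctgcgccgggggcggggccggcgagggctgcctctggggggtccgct

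The XYLT1 window holds 1 match and 15 CpG dinucleotides at 67.6% GC, and the XYLT2 window 0 matches and 39 CpG at 81.2% GC. The CHST11 window holds 1 match and 31 CpG at 73.2% GC, and the CHST12 window 0 matches and 37 CpG at 78.0% GC. Such matches are common: CAGAC on either strand was present in 38.0% of all 35116 promoter windows and in 15 of 42 windows of the members (35.7%). The AP-1 motif TGANTCA was present in 7.1% of the members' windows and 6.6% of all, and the TEAD motif GGAATG in 9.5% and 11.9%. The SP/KLF motif GGGCGG was in 35 of the 42 windows (83.3%) and in 42.6% of all, and the TATA box TATAAA in 1 window (2.4%) and in 10.7% of all. Motifs were counted separately, and matches may overlap. Windows of a gene can overlap too, as with the EXT2 windows that begin at 44095947 and 44095948. The members' windows were not matched to the others for GC content or expression level. RefSeq windows were matched for 30 of the 35 members, 6 of them with more than 1 start, and not for EXT1, EXTL3, CSGALNACT1, SULF1 and HAS2.

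The linkage region is started by XYLT1 and XYLT2, the xylosyltransferases. XYLT1 (ENSG00000103489) lies on chromosome 16, 17101769 to 17470881, minus strand, in GRCh38. Its level in control was 0.557, 0.634, 0.640, 0.911 and 0.543 CPM, and at SPARC 5 it was 5.41, 4.99, 5.78, 5.04 and 5.88 CPM. At SPARC 0.05 the samples had 0.409, 0.633, 0.831, 0.240 and 1.21 CPM, and at SPARC 0.5 they had 0.973, 0.734, 0.779, 0.906 and 1.01 CPM. All 5 samples at the top dose lie far above the other 15, and the 2 lower doses overlap control. The rise was 8.22-fold (log2 fold change 3.04 ± 0.23 SE, adjusted p = 5.29e-20), from 18 to 31 reads per control library to 160 to 242 reads per library at SPARC 5. At 0.5 µg/ml the change was 0.42 ± 0.25 and did not pass (adjusted p = 0.494).

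XYLT2 (ENSG00000015532, chromosome 17, 50346092 to 50363138, plus strand), the more abundant xylosyltransferase, was 89.5 ± 4.49 CPM in control and 88.1 ± 3.35 CPM at SPARC 5 (SD, n = 5). Its log2 fold change was −0.02 ± 0.03 (adjusted p = 0.763). Set against XYLT2 in the same library, which takes library scaling out, XYLT1 counts were 0.733% in control (0.627 to 1.00%), 0.778% at SPARC 0.05, 1.00% at SPARC 0.5 and 6.16% at SPARC 5 (5.37 to 6.70%). XYLT1 therefore remained the minor of the pair by counts at every dose.

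The 5 other linkage enzymes did not pass the test at 5 µg/ml. They were the galactosyltransferases B4GALT7 (−0.01) and B3GALT6 (0.05), the glucuronyltransferase B3GAT3 (−0.10 ± 0.05), the xylose kinase FAM20B (−0.00 ± 0.04) and PXYLP1 (−0.19 ± 0.09), the phosphatase that removes the phosphate FAM20B adds. PXYLP1 was 10.4 ± 1.01 CPM in control and 9.12 ± 0.494 CPM at SPARC 5 (SD, n = 5). Among the 7 linkage genes, then, 1 rose and 0 fell (14.3% called, near the 11.6% of all genes tested).

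EXT1 and EXT2 form the polymerase that extends heparan sulfate. EXT2 (ENSG00000151348, chromosome 11, 44095549 to 44245429, plus strand) was 146, 145, 146, 146 and 149 CPM in control and 172, 176, 174, 172 and 171 CPM at SPARC 5. At SPARC 0.05 it was 146, 154, 151, 155 and 158 CPM, and at SPARC 0.5 it was 154, 159, 156, 154 and 156 CPM. The samples at SPARC 5 are all above every other sample, and those at SPARC 0.5 are all above control. The change at 5 µg/ml was small and precise, 0.24 ± 0.03 (adjusted p = 8.4e-12), while that at 0.5 µg/ml, 0.09 ± 0.03, missed the threshold (adjusted p = 0.0534). EXT1 went from 138 ± 5.60 to 143 ± 4.20 CPM and did not pass (0.06 ± 0.03, adjusted p = 0.26). The count ratio of EXT1 to EXT2 within a library was 93.9% in control (89.4 to 99.2%) and 82.6% at SPARC 5 (79.0 to 86.1%), with no overlap between the 2 groups. EXTL2 and EXTL3, exostosin-like transferases that act at the start of the chain, had changes of 0.11 ± 0.08 and −0.07 ± 0.03 and did not pass. EXTL3 was called as a fall in 5 of 27 alternative settings, among them the fit without control replicate 5 (−0.10, adjusted p = 0.02).

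The chondroitin polymerization genes held 0 calls among 6 at 5 µg/ml by the edgeR test and 0 by DESeq2, and 2 had an unadjusted p under 0.05. By the edgeR test 11.6% of all genes tested were called at this dose. CHSY1 (0.03 ± 0.04), CHPF (0.07 ± 0.03, adjusted p = 0.0865) and CSGALNACT2 (0.05 ± 0.07) had narrow errors, whereas CHSY3 (0.17 ± 0.63) had 0 to 36 reads per library and could not show a change of this size. CSGALNACT1, one of the 2 transferases that place the first N-acetylgalactosamine, went from 2.66 ± 0.500 to 3.28 ± 0.259 CPM (0.30 ± 0.16, adjusted p = 0.271). CHPF2 (ENSG00000033100), a chondroitin polymerizing factor, fell at the middle dose. Its samples had 80.8, 81.0, 86.2, 77.7 and 76.4 CPM in control and 68.9, 72.6, 73.4, 75.3 and 71.4 CPM at SPARC 0.5. All 5 at SPARC 0.5 lie below control (−0.15 ± 0.04, adjusted p = 0.0118). At SPARC 5 it was 78.6, 73.8, 81.0, 75.2 and 71.0 CPM, which overlaps control and did not pass (−0.08 ± 0.04, adjusted p = 0.168). Corrected for GC content and gene length, the change at SPARC 0.5 was −0.09 (adjusted p = 0.271), and without control replicate 3 it was −0.13 (adjusted p = 0.0886).

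The modifying enzymes of chondroitin and dermatan sulfate held 3 of the 7 rises at 5 µg/ml. Of 7 tested, CHST11, CHST15 and DSE rose (42.9%), 0 fell and 4 did not pass. Beside them, 7.04% of all genes tested rose, and 1465 of the 11087 genes of at least 5 CPM. CHST11 (ENSG00000171310, chromosome 12, 104455295 to 104762014, plus strand) adds sulfate to the fourth carbon of N-acetylgalactosamine in chondroitin. It was 9.33, 11.0, 10.9, 10.9 and 11.2 CPM in control and 20.3, 21.0, 19.3, 19.9 and 17.5 CPM at SPARC 5. At SPARC 0.05 it was 9.78, 8.92, 10.2, 11.6 and 11.8 CPM, and at SPARC 0.5 it was 13.2, 12.8, 11.0, 11.8 and 11.2 CPM. The top dose stands clear of the other 15 samples, and the middle dose overlaps control. The rise at 5 µg/ml was 1.84-fold (0.88 ± 0.08, adjusted p = 8.57e-16). The change at 0.5 µg/ml was 0.17 ± 0.08 (adjusted p = 0.343).

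**Figure D2:**
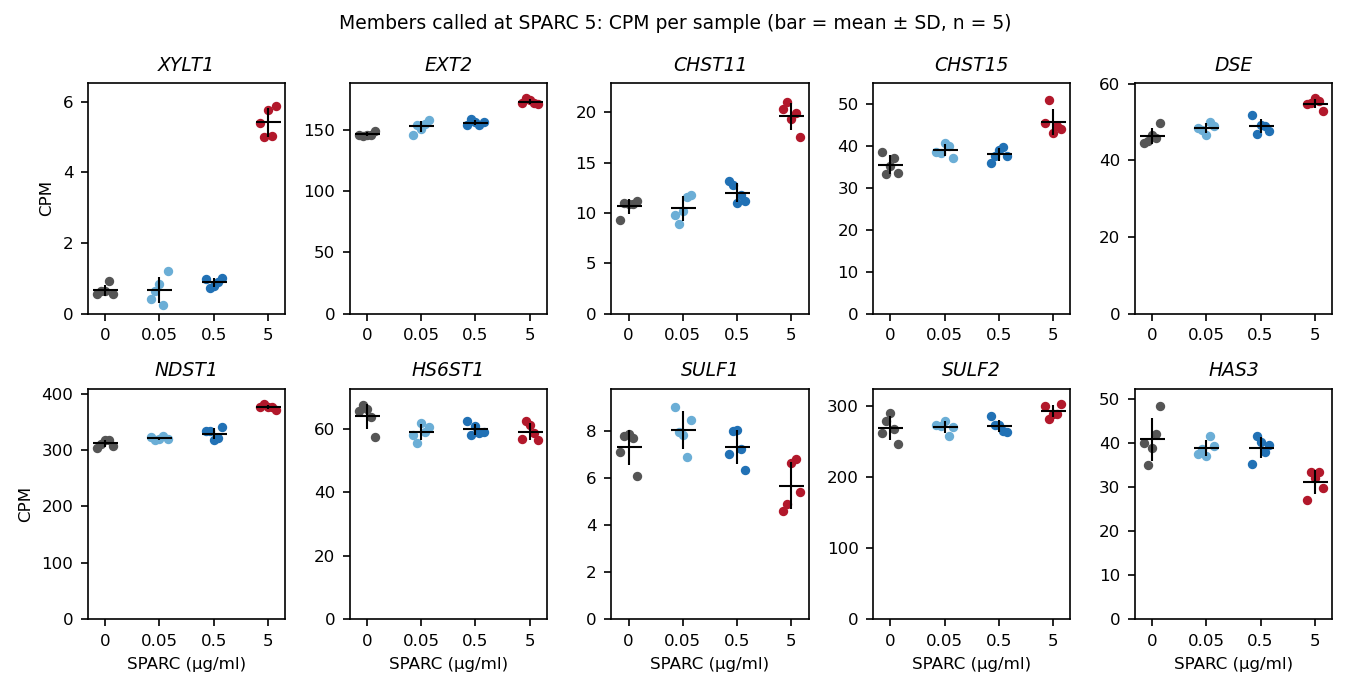
CPM (y axis, from 0) of the 10 enzymes that passed the test at SPARC 5, in each sample (points) by SPARC concentration in µg/ml (x axis), with the mean ± SD of 5 samples (bars). For XYLT1, EXT2, CHST11, CHST15, DSE and NDST1 all 5 samples at 5 µg/ml lie above control and for HAS3 all lie below, while SULF1, SULF2 and HS6ST1 overlap control.

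CHST15 (ENSG00000182022, chromosome 10, 124007666 to 124093607, minus strand) adds a further sulfate to chondroitin that is already sulfated. Its samples had 38.6, 33.2, 35.3, 37.0 and 33.5 CPM in control and 45.5, 51.0, 43.0, 44.8 and 44.1 CPM at SPARC 5, with no overlap (0.36 ± 0.05, adjusted p = 7.31e-09). DSE (ENSG00000111817, chromosome 6, 116254173 to 116444860, plus strand) is an epimerase that turns glucuronic into iduronic acid and so makes dermatan from chondroitin. It had 44.5, 45.1, 46.5, 45.8 and 49.8 CPM in control and 54.6, 55.0, 56.2, 55.6 and 52.8 CPM at SPARC 5, again with no overlap (0.24 ± 0.04, adjusted p = 5.27e-06). Both genes at the 2 lower doses overlapped control: CHST15 was 38.9 ± 1.37 and 38.0 ± 1.46 CPM, and DSE 48.4 ± 1.22 and 49.0 ± 1.86 CPM, at 0.05 and 0.5 µg/ml (SD, n = 5).

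CHST12 (ENSG00000136213) acts at the same carbon as CHST11 and did not rise with it. Its samples had 34.0, 31.9, 31.9, 33.7 and 28.2 CPM in control, 32.2, 26.5, 25.9, 24.9 and 27.1 CPM at SPARC 0.5 and 33.6, 28.2, 25.3, 28.2 and 27.8 CPM at SPARC 5. Both treated groups overlap control. It fell at 0.5 µg/ml (−0.23 ± 0.06, adjusted p = 0.0197) and did not pass at 5 µg/ml (−0.16 ± 0.06, adjusted p = 0.0739). At 5 µg/ml it was called as a fall in 7 of 27 alternative settings, among them the correction for GC content and gene length (−0.19, adjusted p = 0.025), the replicate block (−0.16, adjusted p = 0.0396), and the fits without control replicate 5 (−0.20, adjusted p = 0.0217) or SPARC 5 replicate 1 (−0.23, adjusted p = 0.00693). The fall at 0.5 µg/ml was lost when 1 library was left out: without control replicate 1 the adjusted p was 0.0756, without control replicate 4 it was 0.069, without SPARC 0.5 replicate 3 it was 0.0742 and without SPARC 0.5 replicate 4 it was 0.112. CHST11 counts were 33.6% of CHST12 counts in control (27.5 to 39.6%), 36.1% at SPARC 0.05, 44.0% at SPARC 0.5 and 68.9% at SPARC 5 (60.4 to 76.4%). The dermatan sulfotransferase CHST14 (−0.04 ± 0.06), the chondroitin sulfotransferase CHST3 (0.08 ± 0.03, adjusted p = 0.112) and UST (−0.11 ± 0.08), which sulfates the uronic acid, did not pass at 5 µg/ml.

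**Figure D3:**
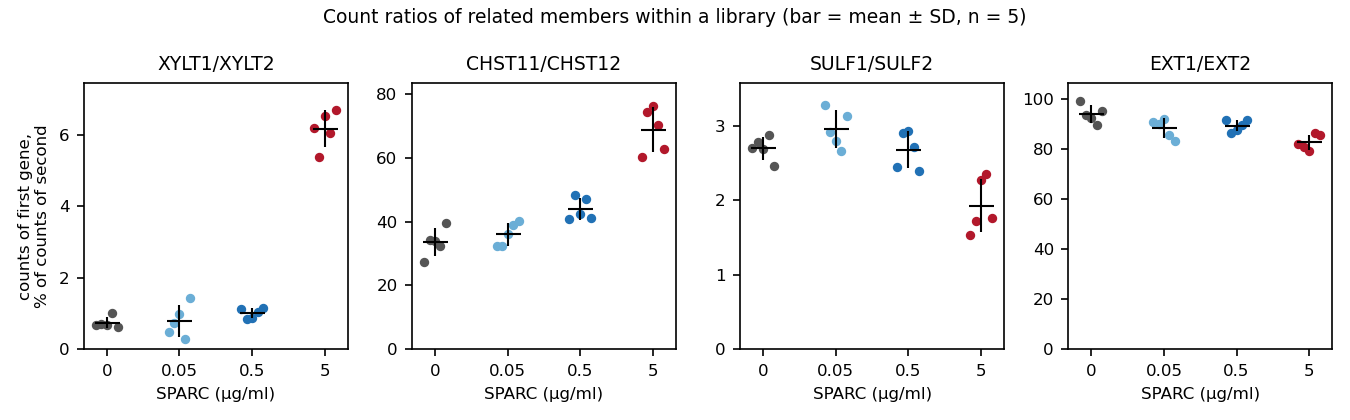
Counts of the first gene as a percent of the counts of the second in the same library (y axis, from 0) against SPARC concentration in µg/ml (x axis), with points for samples and bars for mean ± SD of 5. The ratio at 5 µg/ml lies above all control samples for XYLT1/XYLT2 and CHST11/CHST12 and below them for SULF1/SULF2 and EXT1/EXT2. The other ratios computed overlapped control at this dose and are not shown: CSGALNACT1/CSGALNACT2, CHPF/CHPF2, EXTL2/EXTL3, NDST1/NDST2 and HS6ST1/HS6ST2. How often ratios of other gene pairs separate was not counted.

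Of the 7 heparan sulfate modifying enzymes, NDST1 rose, HS6ST1 fell and 5 did not pass at 5 µg/ml. The called genes were 28.6% of these, beside 11.6% of all genes tested and 20.7% of genes of at least 5 CPM. NDST1 (ENSG00000070614, chromosome 5, 150485818 to 150558211, plus strand) removes acetyl groups from glucosamine and sulfates the freed nitrogen, the step that the later modifications build on. It was 304, 310, 318, 318 and 308 CPM in control and 376, 382, 377, 377 and 371 CPM at SPARC 5. At SPARC 0.05 it was 323, 317, 319, 325 and 320 CPM, and at SPARC 0.5 it was 334, 334, 317, 321 and 340 CPM. Every sample of the top dose lies above all others, and both lower doses overlap control. The rise was 0.27 ± 0.02 (adjusted p = 7.22e-17), and the change at 0.5 µg/ml was 0.08 ± 0.02 (adjusted p = 0.0542).

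HS6ST1 (ENSG00000136720, chromosome 2, 128236716 to 128318577, minus strand) adds sulfate to the sixth carbon of glucosamine. It had 65.6, 67.5, 66.3, 63.7 and 57.5 CPM in control and 56.8, 62.6, 61.3, 58.7 and 56.7 CPM at SPARC 5. The groups overlap through control replicate 5, and the fall was at the threshold (−0.12 ± 0.04, adjusted p = 0.0485). Changes of similar size at 0.05 µg/ml (−0.12 ± 0.04, adjusted p = 0.249) and 0.5 µg/ml (−0.10 ± 0.04, adjusted p = 0.234) did not pass. SPARC 5 against SPARC 0.05 was 0.00 ± 0.04, so the level did not descend with dose. The fall at 5 µg/ml was lost in 16 of 27 alternative settings. Corrected for GC content and gene length it was −0.07 (adjusted p = 0.283), and leaving out 1 library lost it in 12 of 20 cases, with adjusted p up to 0.146 (without control replicate 2). Its relative HS6ST2 was higher than every control sample at 0.05 and 0.5 µg/ml, 63.2 to 68.5 and 63.5 to 68.7 CPM against 57.8 to 62.5 CPM, without passing the test (0.11 ± 0.04, adjusted p = 0.261, and 0.12 ± 0.04, adjusted p = 0.0768). At 5 µg/ml it overlapped control (0.05 ± 0.04).

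HS3ST1, which adds a rare sulfate to the third carbon of glucosamine, was 9.03 ± 1.38 CPM in control and 7.37 ± 1.04 CPM at SPARC 5 (−0.29 ± 0.11, adjusted p = 0.0666). It was called as a fall in 5 of 27 alternative settings, among them the fits without control replicate 2 (−0.38, adjusted p = 0.0156) or SPARC 5 replicate 5 (−0.34, adjusted p = 0.0467). HS2ST1, which sulfates the second carbon of the uronic acid (0.11 ± 0.05, adjusted p = 0.174), and the epimerase GLCE (0.11 ± 0.06) did not pass. NDST2 had 5 to 30 reads per library, and 82.9% of its exonic bases are shared with another gene on the same strand, AC022400.6. Its low counts are therefore uncertain. For HS2ST1 the overlap with AC093155.3 on its own strand was 9.7% of the exonic bases. No member that passed the test shared over 6.9% of its exonic bases with another gene, which for HAS3 was with CHTF8 on the opposite strand.

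The extracellular sulfatases SULF1 and SULF2, which remove sulfate from the sixth carbon of glucosamine in heparan sulfate, moved in opposite directions. SULF2 (ENSG00000196562, chromosome 20, 47656348 to 47786616, minus strand) was 263, 280, 291, 268 and 247 CPM in control and 301, 283, 290, 290 and 304 CPM at SPARC 5. SULF1 (ENSG00000137573) was 7.11, 7.79, 7.85, 7.70 and 6.07 CPM in control and 4.61, 4.90, 6.62, 6.80 and 5.38 CPM at SPARC 5. Both overlap control through 1 or more samples. SULF2 rose by 0.12 ± 0.03 (adjusted p = 0.00195), and SULF1 fell by 0.37 ± 0.11 on the log2 scale (adjusted p = 0.0173). The SULF2 call was lost with scaling by library sizes alone (0.07, adjusted p = 0.091), and the SULF1 call in 4 of 27 settings. For SULF1 the adjusted p was 0.0553 without control replicate 3, 0.0881 without SPARC 5 replicate 1, 0.0569 without SPARC 5 replicate 2, and 0.171 without SPARC 5 replicates 2 and 5. SULF1 counts were 2.7% of SULF2 counts in control (2.46 to 2.88%) and 1.93% at SPARC 5 (1.53 to 2.35%), so the ratio within a library did not overlap between the groups.

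Hyaluronan synthase HAS3 fell at the top dose. HAS3 (ENSG00000103044) lies on chromosome 16, 69105564 to 69118719, plus strand. It was 40.0, 35, 38.9, 41.9 and 48.3 CPM in control and 27.1, 33.3, 32.0, 33.3 and 29.7 CPM at SPARC 5. The 2 lower doses had 37.5, 38.6, 37.0, 41.5 and 39.3 CPM (SPARC 0.05) and 35.2, 41.6, 40.2, 38.0 and 39.6 CPM (SPARC 0.5). All 5 samples at SPARC 5 are below every other sample, and the lower doses lie within the control range. The fall was 0.39 ± 0.06 on the log2 scale (adjusted p = 6.47e-07). HAS2, another hyaluronan synthase, had too few reads to test: control libraries held 6, 0, 0, 2 and 0 reads, SPARC 0.05 libraries 0, 2, 0, 0 and 0, SPARC 0.5 libraries 0, 10, 4, 2 and 2, and SPARC 5 libraries 0 each. A count of 0 allows up to 3 reads, or 0.0717 to 0.0936 CPM in the SPARC 5 libraries, so a difference from control was not detectable at this depth.

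The top dose was also compared with the lower doses. Against SPARC 0.5, 10 members passed the test (29.4%, beside 4.80% of all genes tested, 3.31% as rises and 1.49% as falls), 7 as rises and 3 as falls. The rises were the same 7 genes that rose against control, led by XYLT1 (2.62 ± 0.22) and CHST11 (0.71 ± 0.08), and the falls were PXYLP1 (−0.30 ± 0.09, adjusted p = 0.0319), SULF1 (−0.37) and HAS3 (−0.33). Against SPARC 0.05, 12 members passed (35.3%), beside 8.28% of all genes (5.54% as rises, 2.74% as falls). The 8 rises were those 7 genes and B3GALT6 (0.13, adjusted p = 0.0233), and the 4 falls were B3GAT3 (−0.18, adjusted p = 0.00361), PXYLP1 (−0.29, adjusted p = 0.0287), SULF1 (−0.50) and HAS3 (−0.32). Between SPARC 0.5 and SPARC 0.05, 0 of 34 passed the edgeR test, beside 0.179% of all genes (0.157% as rises, 0.0218% as falls), and DESeq2 called 0, while 4 had an unadjusted p under 0.05. All of these comparisons reuse the same samples and so are not independent.

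A fit of a straight trend over the dose steps called 9 members (26.5%), 7 rises and 2 falls. Beside them, 11.1% of all genes were called (6.81% as rises, 4.27% as falls). XYLT1 changed by 1.09 ± 0.15 and CHST11 by 0.29 ± 0.04 log2 units per step, and SULF1 and HAS3 each by −0.12. For XYLT1 the values by group show that the change came between 0.5 and 5 µg/ml: the means were 0.657 ± 0.148, 0.665 ± 0.380, 0.880 ± 0.119 and 5.42 ± 0.411 CPM from control to the top dose (SD, n = 5). NDST1 had means of 312 ± 6.14, 321 ± 3.24, 329 ± 9.57 and 377 ± 3.75 CPM, and EXT2 146 ± 1.47, 153 ± 4.55, 156 ± 1.92 and 173 ± 1.94 CPM in the same order. For these 2 genes the means ascend over the 4 groups, and the largest step is again the last.

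Levels of different genes were compared per length, as counts per kilobase of exons and library total (RPKM, over GENCODE 29 gene models). In control, CHPF was the highest at 63.9 RPKM, followed by SULF2 at 40.5, NDST1 at 32.7, EXT2 at 27.7 and B3GALT6 at 23.9 RPKM. XYLT1 ranked 34 of the 35 at 0.0597 RPKM, above HAS2 alone, and at SPARC 5 it had 0.493 RPKM. CHST11 went from 1.64 to 3.02 RPKM and CHST12 from 1.98 to 1.77 RPKM. The order of these 2 depends on the gene models, whose exons total 6492 bases for CHST11 and 16143 for CHST12. By counts, CHST11 stayed below CHST12 at SPARC 5 (68.9%, 60.4 to 76.4%). Which transcripts were expressed was not tested. The largest fold changes were thus in low genes, and the most precise small changes in high ones, NDST1, EXT2 and SULF2.

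**Figure D4:**
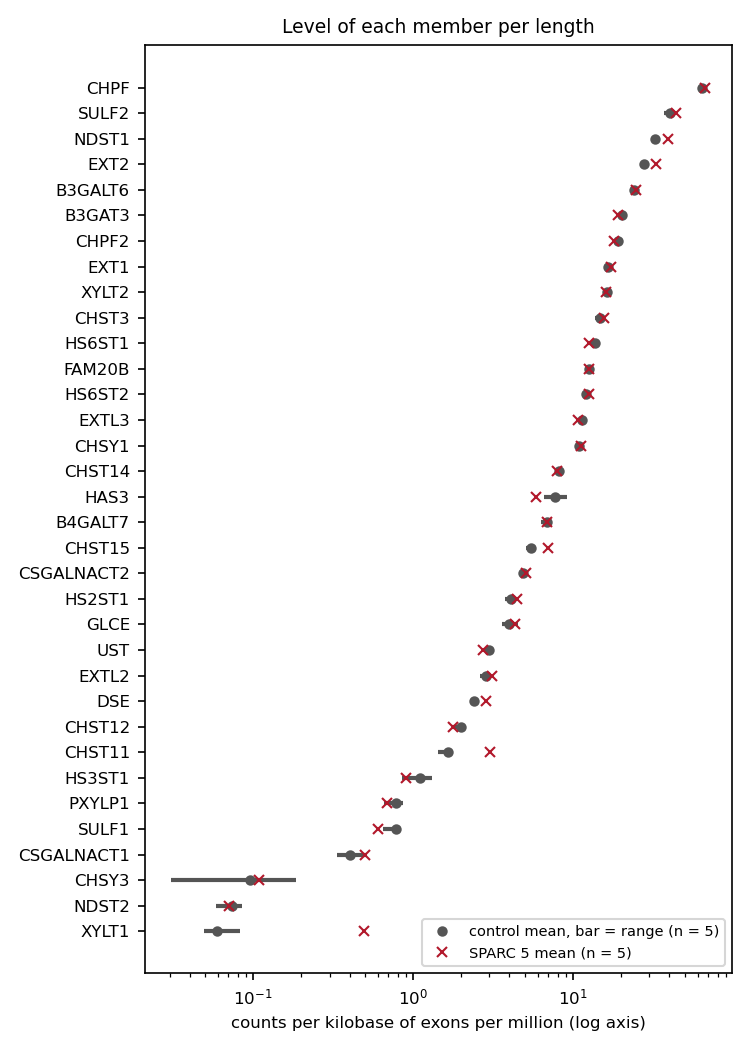
Level of 34 enzymes in RPKM (x axis, log scale), sorted by the control level (y axis); grey points and bars are the control mean and range of 5 samples, red crosses the SPARC 5 mean of 5. XYLT1 moves from 0.0597 to 0.493, while most crosses lie on or next to the control range.

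The sugars and sulfate that the chains are built from come from a separate set of enzymes and transporters. Of 17 such genes, all tested, 6 rose at 5 µg/ml, with a median log2 fold change of 0.09 beside −0.01 over all genes. Rises made up 7.04% of all genes tested, and 1465 of the 11087 genes of at least 5 CPM rose. UAP1, which makes the nucleotide sugar UDP-N-acetylglucosamine, went from 81.3 ± 4.08 to 102 ± 4.48 CPM (SD, n = 5; 0.32 ± 0.04, adjusted p = 3.57e-11). UGP2, which makes UDP-glucose, went from 55.4 ± 3.45 to 67.7 ± 3.33 CPM (0.29 ± 0.04, adjusted p = 4.65e-08). The sulfate transporter SLC26A2 went from 123 ± 9.84 to 155 ± 4.97 CPM (0.34 ± 0.06, adjusted p = 0.000368). GFPT1, the first enzyme of hexosamine synthesis, rose by 0.18 ± 0.04 (adjusted p = 0.000446), which a correction for GC content and length brought to 0.09 (adjusted p = 0.109). For UAP1 and SLC26A2 the groups at 5 µg/ml and control do not overlap, and the same holds for UGP2 and GFPT1. The other rises were UGDH (0.15), which makes UDP-glucuronic acid, and PAPSS1 (0.14), which makes the sulfate donor; these 2 are named after their values were seen. At 0.5 µg/ml 1 of the 17 rose (5.88%, beside 1.36% of all genes tested as rises), UAP1 (0.16).

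Further enzymes of the same pathways, such as the hyaluronan synthase HAS1 and the sulfotransferase CHST7, numbered 15. Of these, 6 had enough reads to test, and at 5 µg/ml 0 passed the edgeR test or DESeq2 and 1 had an unadjusted p under 0.05. Of all genes tested, 11.6% passed the edgeR test at this dose. Of the 6, EXTL1 (0.369 CPM in control), NDST3 (0.286), HS3ST3B1 (0.681) and HAS1 (0.315) were low. A moderate change in them could be missed. Keratan sulfate, the chain for which the corneal stroma is known, is made by another set. Of 13 genes listed, 9 were tested, 0 fell and 3 rose (33.3%, beside 7.04% of all genes tested as rises). They were the galactosyltransferase B4GALT1 (129 ± 3.59 to 154 ± 2.96 CPM, 0.25 ± 0.03, adjusted p = 2.02e-11), the sulfotransferase CHST2 (9.93 ± 0.395 to 12.0 ± 0.994 CPM, 0.27 ± 0.09, adjusted p = 0.0331) and the fucosyltransferase FUT8 (10.3 ± 1.31 to 12.4 ± 1.54 CPM, 0.26 ± 0.09, adjusted p = 0.0419). These 3 also act on the sugars of ordinary glycoproteins. The call of CHST2 was lost in 6 of 27 alternative settings, 5 of them with 1 library left out (control replicate 1, 2 or 3, or SPARC 5 replicate 1 or 3, adjusted p up to 0.158). That of FUT8 was lost in 11, 7 of them with 1 library left out (control replicate 1, 2 or 4, or SPARC 5 replicate 1, 2, 4 or 5, adjusted p up to 0.221). CHST6, the corneal keratan sulfotransferase, was near the detection limit at 0.304 ± 0.128 CPM in control and 0.0953 ± 0.0506 CPM at SPARC 5 and did not pass.

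Of 19 genes of glycosaminoglycan breakdown, 3 rose and 1 fell at 5 µg/ml. The called genes were 21.1% of the list, beside 11.6% of all genes tested. Among genes of at least 5 CPM, 20.7% were called, close to the share of the list. The rises were the hyaluronidases CEMIP2 (49.1 ± 2.74 to 56.0 ± 1.56 CPM, 0.19 ± 0.04, adjusted p = 0.000669) and HYAL1 (20.0 ± 1.93 to 23.4 ± 2.05 CPM, 0.23 ± 0.07, adjusted p = 0.0117), and the lysosomal acetyltransferase HGSNAT (0.14 ± 0.05, adjusted p = 0.0332). The fall was SGSH, the lysosomal heparan sulfamidase (32.9 ± 1.68 to 28.5 ± 1.41 CPM, −0.20 ± 0.05, adjusted p = 0.00533). Among these, CEMIP2 and SGSH did not overlap between the groups. HYAL1 lost its call without control replicate 3 (adjusted p = 0.0579) or SPARC 5 replicate 5 (0.0957), and HGSNAT without control replicate 3 (0.0637) or 5 (0.164) or SPARC 5 replicate 3 (0.0549) or 5 (0.181). SGSH lost it without SPARC 5 replicates 2 and 5 together (−0.16, adjusted p = 0.108).

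Core proteins that carry the chains changed in both directions: of 22 listed, 16 were tested, 3 rose and 4 fell. The called genes were 43.8% of those tested, beside 11.6% of all genes tested and 20.7% of genes of at least 5 CPM. The hyaluronan receptor CD44, of which some forms carry chains, rose from 662 ± 19.1 to 768 ± 12.3 CPM (0.21 ± 0.02, adjusted p = 1.08e-12). The syndecan SDC3 rose from 30.3 ± 2.39 to 40.8 ± 1.23 CPM (0.43 ± 0.05, adjusted p = 1.53e-10). Neuropilin NRP1 fell from 177 ± 8.97 to 148 ± 6.02 CPM (−0.26 ± 0.03, adjusted p = 5.84e-11) and brevican BCAN from 4.61 ± 0.754 to 2.66 ± 0.403 CPM (−0.79 ± 0.14, adjusted p = 1.68e-05). For CD44, SDC3, NRP1 and BCAN the samples at SPARC 5 and control did not overlap. The basement membrane proteoglycans AGRN (0.15) and HSPG2 (−0.26), named after their values were seen with the glypican GPC1 (−0.19), went in opposite directions. SDC1, the main epithelial syndecan, did not pass (0.01 ± 0.02). At 0.5 µg/ml 2 of the 16 rose (12.5%, beside 1.36% of all genes tested as rises), SDC3 (0.19) and CD44 (0.09).

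The authors' deposited tables of each dose against control list 32 of the 35 enzymes among 16121 genes. In the authors' deposited table for 5 µg/ml, 7 enzymes rose and 4 fell at an adjusted p under 0.05, with CHST12 (−0.18, adjusted p = 0.045) as a fall. Of all 16121 genes in it, 2631 were under 0.05 in either direction. In the authors' deposited table for 0.5 µg/ml 0 enzymes rose and 2 fell, beside 554 of the 16121 genes. The log2 fold changes at 5 µg/ml in the authors' deposited table were 3.01 for XYLT1 and 0.86 for CHST11.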

How the data were processed

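The authors deposited whole read counts per Ensembl gene for 20 samples. Per the submitters' processing notes, reads were processed on genome GRCh38 with tools that include STAR 2.7.9a, featureCounts 2.0.3 (Subread) and Salmon 1.5.2; bcl2fastq, limma and edgeR are also named. Neither annotation release nor strandedness of counting is given in the sources used, so reads of overlapping genes may be shared. The authors also deposited, per the file headers, log2 fold changes with adjusted p-values for every dose against control. Per the labels, ribosomal RNA was depleted and cDNA was primed with random hexamers.

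From the counts, 60871 entries were reduced to 60671 identifiers, since repeated identifiers had equal counts. In R 4.3.3, edgeR 4.0.16 kept genes with filterByExpr (minimum count 10), scaled libraries with TMM and fitted all 4 groups together with robust quasi-likelihood F-tests, which left 22938 genes. The SE is the log2 fold change divided by the root of F. The common biological coefficient of variation was 6.68%. Limits from counts cover counting error only. The dose steps of the trend are the 4 groups in order. Alternatives were library sizes alone, DESeq2 1.42.0, no filter, a GC and length offset, a replicate block, and libraries left out. Positions and lengths of genes and their GC content were taken from GENCODE 29, with GC and length known for 98.0% of the genes tested. The fit was tested on simulated counts. The main fit did not pair samples by replicate number. Of 30 same-number pairs, 0 had a correlation over 0.1. The own number was the best match in 12 of 30, so these values cannot exclude pairing.

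Named genes are all members, with values in every sample for those called against control, and up to 4 called genes of each further list by smallest p. The members and lists were chosen with earlier results of these data known. One gene of the list on precursor and sulfate supply is not reported here.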

Additional observations from a re-analysis of the deposited data

Results flagged for a closer look

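In 136 groups of 5 samples (34 tested members in 4 groups), 5 had a highest or lowest sample that stood apart from the others by Dixon's 95% criterion (the gap to the nearest sample over the range). By chance about 1 in 20 groups would be marked. CHST11 in control replicate 1 was 9.33 CPM against 10.9 to 11.2 CPM in the other control samples. EXT2 in control replicate 5 was 149 CPM against 145 to 146 CPM. CHST3 in control replicate 1 was 96.5 CPM against 104 to 106 CPM. PXYLP1 in replicate 2 of SPARC 0.5 was 8.52 CPM against 11.7 to 12.5 CPM, and HS3ST1 in replicate 1 of SPARC 0.05 was 9.81 CPM against 7.25 to 7.59 CPM. The rises of CHST11 and EXT2 at 5 µg/ml passed the test with each of the 20 libraries left out in turn.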

How the results depend on the processing

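Of the 10 members called at 5 µg/ml, 7 kept direction and call in all 27 alternative settings: XYLT1 (log2 fold change 2.98 to 3.18), CHST11 (0.83 to 0.91), CHST15 (0.31 to 0.39), EXT2 (0.19 to 0.25), NDST1 (0.23 to 0.28), DSE (0.16 to 0.27) and HAS3 (−0.45 to −0.33). The other 3, SULF2, SULF1 and HS6ST1, lost the call in 1, 4 and 16 settings. None of these 10 changed sign in the 27 settings. Of the members not called at 5 µg/ml, CHST12 was called as a fall in 7 settings, EXTL3 and HS3ST1 in 5 each, and B3GAT3 and CHPF2 in 1 each, while CHPF was called as a rise in 2 and CHST3 in 1. The cause of the moves below was not tested.

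DESeq2 called 802 genes and 6 members at 0.5 µg/ml (517 and 2 by edgeR), 206 genes at 0.05 µg/ml (61) and 83 between SPARC 0.5 and SPARC 0.05 (41). The GC and length offset called 13 genes at 0.05 µg/ml, 74 between SPARC 0.5 and SPARC 0.05, and 15 members in the trend (9). Library sizes alone also called 15 members in the trend, and no filter called 70 genes between SPARC 0.5 and SPARC 0.05. Same-number pairs had correlations of −0.035 to 0.044, and the own number was the best match in 12 of 30, which cannot exclude pairing by replicate number. With the replicate block, 2750 genes and 11 members were called at 5 µg/ml, 4 members at 0.5 µg/ml and 66 genes between SPARC 0.5 and SPARC 0.05. The block with the GC offset called 29 genes at 0.05 µg/ml, 141 between SPARC 0.5 and SPARC 0.05, and 15 members in the trend. Over genes of at least 5 CPM, chosen after seeing the data, 9 members were called at 5 µg/ml.

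Leaving out each library in turn gave 2236 to 2662 genes and 8 to 12 members at 5 µg/ml, 267 (without SPARC 0.5 replicate 4; 333 without control replicate 3) to 608 genes and 1 to 4 members at 0.5 µg/ml, and 22 (without SPARC 0.05 replicate 2) to 82 genes and 0 members at 0.05 µg/ml. At 0.5 µg/ml 1 member was called without control replicate 1, 3 or 4 or SPARC 0.5 replicate 4, and 4 members without SPARC 0.05 replicate 4 or SPARC 5 replicate 1, 2 or 5. At 0.05 µg/ml, 23 genes were called without control replicate 4, 33 without SPARC 0.05 replicate 5, 34 without control replicate 2 or SPARC 0.05 replicate 3, and 39 without control replicate 3. SPARC 5 against SPARC 0.5 gave 850 to 1142 genes and 7 to 10 members, SPARC 5 against SPARC 0.05 gave 1543 to 1937 genes and 10 to 13 members, SPARC 0.5 against SPARC 0.05 gave 15 (without SPARC 0.5 replicate 4) to 52 genes and 0 members, and the trend gave 2089 to 2535 genes and 9 to 12 members. Depth limits CHSY3, NDST2 and HAS2, which had at most 36, 30 and 10 reads in a library.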
